A study of Mus musculus with 15 samples.

Results

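The 9 complement genes followed here, C1qa, C1qb, C1qc, C1ra, C1s1, C2, C3, C4b and Cfb, were compared across skin from mouse wounds and normal mouse skin. They were taken by name, as the chains of C1q, its serine proteases and the components of the C3 convertases, with earlier results of these data known. They are 9 of the 18929 genes in the count table. RNA sequencing had been done on 15 skin samples from wild-type male balb/c mice, in 5 groups of 3. The 4 wound groups came from round full-thickness excisions on the back, of either 10 mm or 15 mm, into which beads of Matrigel, a basement membrane gel, had been printed. The beads were either acellular or, in the group called HDB, high-density beads loaded with mesenchymal stem cells from human umbilical cord and laid down sparsely among acellular ones. The fifth group was normal, unwounded skin. The labels give no time after wounding. The study's methods place the harvest weeks after printing but give differing durations, so no exact time is printed here. Nothing in the labels states that the 3 samples of a group came from separate animals, so the p-values below measure the spread between samples, which may be technical. The implanted cells were human and the table lists mouse genes, so the values describe transcripts assigned to the mouse.

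Complement is a cascade of plasma and tissue proteins that marks microbes, dying cells and debris for removal. C1q, a bundle of A, B and C chains, recognises the target and activates the proteases C1r and C1s, which cleave C4 and C2. The fragments of C4 and C2 form the classical C3 convertase, factor B (Cfb) supplies the protease of the alternative convertase, and both cleave C3, on which all routes converge. The liver makes most of the circulating C3, C4, C2 and factor B, whereas C1q comes largely from macrophages and dendritic cells, and fibroblasts of connective tissue are a known local source of C1r, C1s and C3.

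The genes lie in 4 places of the mouse genome (GRCm38.p6), and several are close neighbours. On chromosome 4 the chains of C1q lie in a row on the minus strand, C1qb at chr4:136880126-136886200, C1qc at chr4:136889801-136892936 and C1qa at chr4:136895916-136898844, with 3600 and 2979 bases between them. On chromosome 6, C1ra (chr6:124512621-124523440, plus strand) and C1s1 (chr6:124530344-124542392, minus strand) are 6903 bases apart. On chromosome 17, in the major histocompatibility region, C4b (chr17:34728139-34743902), Cfb (chr17:34856374-34862514) and C2 (chr17:34862602-34882100) are all on the minus strand, and 87 bases separate Cfb from C2. C3 lies apart from them on the same chromosome, at chr17:57203967-57228136 on the minus strand.

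RefSeq promoter windows of GRCm38.p6 were at hand for 5 of the 9 genes, and the stretches before the gene start are shown because the members moved together and their inputs are known to include interferon, NF-kB, PU.1 and C/EBP factors. Each is printed 5′ to 3′ on the strand of its gene, in lower case, with matches to the searched motifs in capitals.
C1qb, chr4:136886201-136886450, minus strand: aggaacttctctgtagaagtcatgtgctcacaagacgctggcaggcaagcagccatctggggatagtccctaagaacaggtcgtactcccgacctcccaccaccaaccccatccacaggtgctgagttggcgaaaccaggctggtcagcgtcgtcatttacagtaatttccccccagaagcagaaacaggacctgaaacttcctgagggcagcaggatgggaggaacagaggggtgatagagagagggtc
C1qc, chr4:136892937-136893164, minus strand: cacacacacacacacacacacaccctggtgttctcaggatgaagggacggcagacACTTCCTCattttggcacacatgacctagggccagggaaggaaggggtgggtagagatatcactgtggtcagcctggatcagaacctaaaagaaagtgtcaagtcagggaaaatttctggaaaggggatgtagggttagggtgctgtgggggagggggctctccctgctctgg
C1ra, chr6:124512371-124512620, plus strand: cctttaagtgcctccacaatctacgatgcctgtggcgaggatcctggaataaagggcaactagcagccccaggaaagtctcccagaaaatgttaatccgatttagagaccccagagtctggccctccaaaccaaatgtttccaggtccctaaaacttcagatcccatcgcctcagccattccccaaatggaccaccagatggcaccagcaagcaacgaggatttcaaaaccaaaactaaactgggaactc
C1s1, chr6:124542393-124542609, minus strand: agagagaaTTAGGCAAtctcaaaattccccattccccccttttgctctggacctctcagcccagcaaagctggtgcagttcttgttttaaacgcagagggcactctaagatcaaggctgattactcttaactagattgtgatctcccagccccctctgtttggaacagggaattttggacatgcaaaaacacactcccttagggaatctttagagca
C3, chr17:57228137-57228386, minus strand: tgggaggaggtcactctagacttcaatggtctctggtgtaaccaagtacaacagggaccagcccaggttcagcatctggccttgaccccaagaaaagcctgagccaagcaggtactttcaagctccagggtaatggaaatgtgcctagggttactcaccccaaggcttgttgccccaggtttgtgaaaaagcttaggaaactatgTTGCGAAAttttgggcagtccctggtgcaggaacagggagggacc

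Motifs of 5 factors were searched on both strands of the 300-base windows, which run past the gene start, and their frequency was set against all 32851 windows. The C/EBP letters TTGCNNAA occurred in 3 of the 5 members (C1ra, C1s1 and C3) and in 10.8% of all windows. C1s1 had 2 windows, and the match lay only in the one printed above, so members and windows are not counted alike. In C3 the match, TTGCGAAA, began 45 bases before the start, in C1s1 it was TTAGGCAA, and in C1ra TTATGCAA lay 16 bases after the start and is outside the printed stretch. The interferon-gamma-activated site TTCNNNGAA matched in C1ra alone, as TTCCCTGAA 32 bases after the start, against 8.3% of windows. PU.1 (GAGGAAGT) matched once, in C1qc as ACTTCCTC, against 3.2% of windows. It lay 195 bases before the transcript start that defines the window, a point inside the gene and past the end of the printed stretch. No member window held the interferon-stimulated response element (GAAA, any 2 bases and GAAA again, in 3.44% of windows) or the NF-kB letters (GGGA, any base and TTTCC, in 0.411%). A match describes these letters in these windows and is not a binding site.

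Library totals ran from 15840551 to 18404188 estimated counts, of which the members made up 0.0242% to 0.204%. Every member passed the filter on low counts, and the lowest count of any member in any sample was 124. Levels are given as CPM, that is, counts relative to the scaled library total. Keratinocyte, fibroblast and endothelial markers were present in every sample, and the hepatocyte list, which stands for the main source of plasma complement, summed to between 1.63 and 10.6 CPM. Alb had the highest mean of that list over the 15 samples, though Ttr was above it in acellular 10 mm and Cps1 in acellular 15 mm wounds. Skeletal muscle markers summed to 42317 to 50726 CPM in normal skin and 534 to 30225 CPM in wounds. Samples 1 and 3 of acellular 15 mm wounds correlated in log2 CPM at r = 0.853, against 0.917 to 0.989 for the other pairs of replicates, and the hair shaft genes of sample 1 summed to 18774 CPM, compared with 5.97 to 6.29 CPM in normal skin. C1ra, C1s1 and C4b have near-identical copies, and their counts carried decimals in all 15 samples because reads had been divided. The copy C4a held 0.707% to 3.06% of the count of C4b, C1rb 0.848% to 2.72% of that of C1ra, and C1s2 19.8% to 42.7% of that of C1s1, so C1s1 is the least certain of the levels.

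The chains of C1q were highest in normal skin and lowest in the acellular 10 mm wounds. C1qa, the A chain, measured 46.3, 153 and 96.1 CPM in normal samples 1, 2 and 3. In acellular wounds it measured 17.3, 33.0 and 12.3 CPM at 10 mm and 15.6, 24.0 and 45.2 CPM at 15 mm. In HDB wounds it measured 21.4, 24.9 and 33.9 CPM at 10 mm and 44.0, 86.1 and 48.9 CPM at 15 mm. Both acellular groups and the HDB 10 mm group lay wholly below normal skin, whereas the HDB 15 mm samples overlapped its range. C1qb, the B chain, measured 33.9, 112 and 72.2 CPM in normal skin, 10.7, 23.2 and 7.25 CPM in acellular 10 mm wounds and 16.9, 17.3 and 20.6 CPM in HDB 10 mm wounds. At 15 mm it measured 10.3, 17.7 and 34.6 CPM with acellular beads and 29.8, 57.0 and 37.3 CPM with HDB. The order of the groups was that of C1qa, with acellular 15 mm sample 3 just inside the normal range. C1qc, the C chain, measured 37.2, 123 and 83.2 CPM in normal skin, 17.1, 31.6 and 11.2 CPM in acellular 10 mm wounds and 20.3, 25.9 and 33.3 CPM in HDB 10 mm wounds. In the larger wounds it measured 13.3, 21.5 and 40.6 CPM with acellular beads and 42.3, 78.3 and 46.6 CPM with HDB, and here the lowest HDB sample lay above the highest acellular one. In percent of the normal mean the chains averaged 18.9% to 24.6% in acellular 10 mm, 25.2% to 32.6% in HDB 10 mm, 28.8% to 30.9% in acellular 15 mm and 57.0% to 68.6% in HDB 15 mm wounds. In bulk tissue such as this, fewer cells of a type and less RNA per cell cannot be told apart.

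C1ra and C1s1 encode the proteases that C1q activates. C1ra, the gene of C1r, measured 72.7, 144 and 105 CPM in normal skin. It measured 27.5, 43.9 and 26.6 CPM in acellular 10 mm wounds and 24.9, 42.5 and 82.6 CPM in acellular 15 mm wounds. It measured 48.8, 34.3 and 65.8 CPM in HDB 10 mm wounds and 70.8, 121 and 92.1 CPM in HDB 15 mm wounds. Both 10 mm groups were below all normal samples, and HDB 15 mm overlapped normal skin. C1s1, which encodes C1s, measured 84.4, 164 and 111 CPM in normal skin, 40.4, 69.6 and 36.2 CPM in acellular 10 mm and 32.3, 67.2 and 122 CPM in acellular 15 mm wounds. With HDB it measured 85.5, 52.4 and 105 CPM at 10 mm and 92.8, 166 and 109 CPM at 15 mm, so that acellular 10 mm was the one wound group wholly below normal skin. The HDB 15 mm means were 88.4% of normal for C1ra and 102% for C1s1.

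C2 and Cfb encode the related serine proteases of the classical and the alternative convertase. C2 measured 29.0, 90.6 and 46.8 CPM in normal skin. In 10 mm wounds it measured 16.2, 22.6 and 11.98 CPM with acellular beads and 34.1, 23.7 and 31.3 CPM with HDB. In 15 mm wounds it measured 26.4, 31.9 and 48.5 CPM with acellular beads and 49.4, 68.3 and 49.9 CPM with HDB. At each size every HDB sample was above every acellular sample, though narrowly, the nearest samples being at 23.7 and 22.6 CPM at 10 mm and at 49.4 and 48.5 CPM at 15 mm. Cfb measured 49.6, 129 and 65.7 CPM in normal skin, 17.9, 24.5 and 10.9 CPM in acellular 10 mm and 33.1, 22.1 and 45.4 CPM in HDB 10 mm wounds. In 15 mm wounds it measured 28.6, 44.9 and 63.9 CPM with acellular beads and 61.9, 81.7 and 41.3 CPM with HDB. The treatments overlapped at both sizes for Cfb, and both 10 mm groups were below normal skin.

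C4b and C3 encode the thioester proteins that attach to a target once cleaved. C4b measured 175, 535 and 331 CPM in normal skin. In acellular wounds it measured 76.2, 91.0 and 61.2 CPM at 10 mm and 113, 269 and 375 CPM at 15 mm. In HDB wounds it measured 214, 61.7 and 132 CPM at 10 mm and 355, 464 and 242 CPM at 15 mm. Acellular 10 mm was the one wound group wholly below normal skin, and the mean of HDB 15 mm was 102% of normal. C3 measured 192, 803 and 551 CPM in normal skin, 55.9, 95.4 and 63.5 CPM in acellular 10 mm and 149, 71.1 and 135 CPM in HDB 10 mm wounds. At 15 mm it measured 51.8, 140 and 277 CPM with acellular beads and 181, 531 and 125 CPM with HDB. Its wound means were 13.9% of normal in acellular 10 mm, 22.9% in HDB 10 mm, 30.4% in acellular 15 mm and 54.2% in HDB 15 mm wounds.

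**Figure D1:**
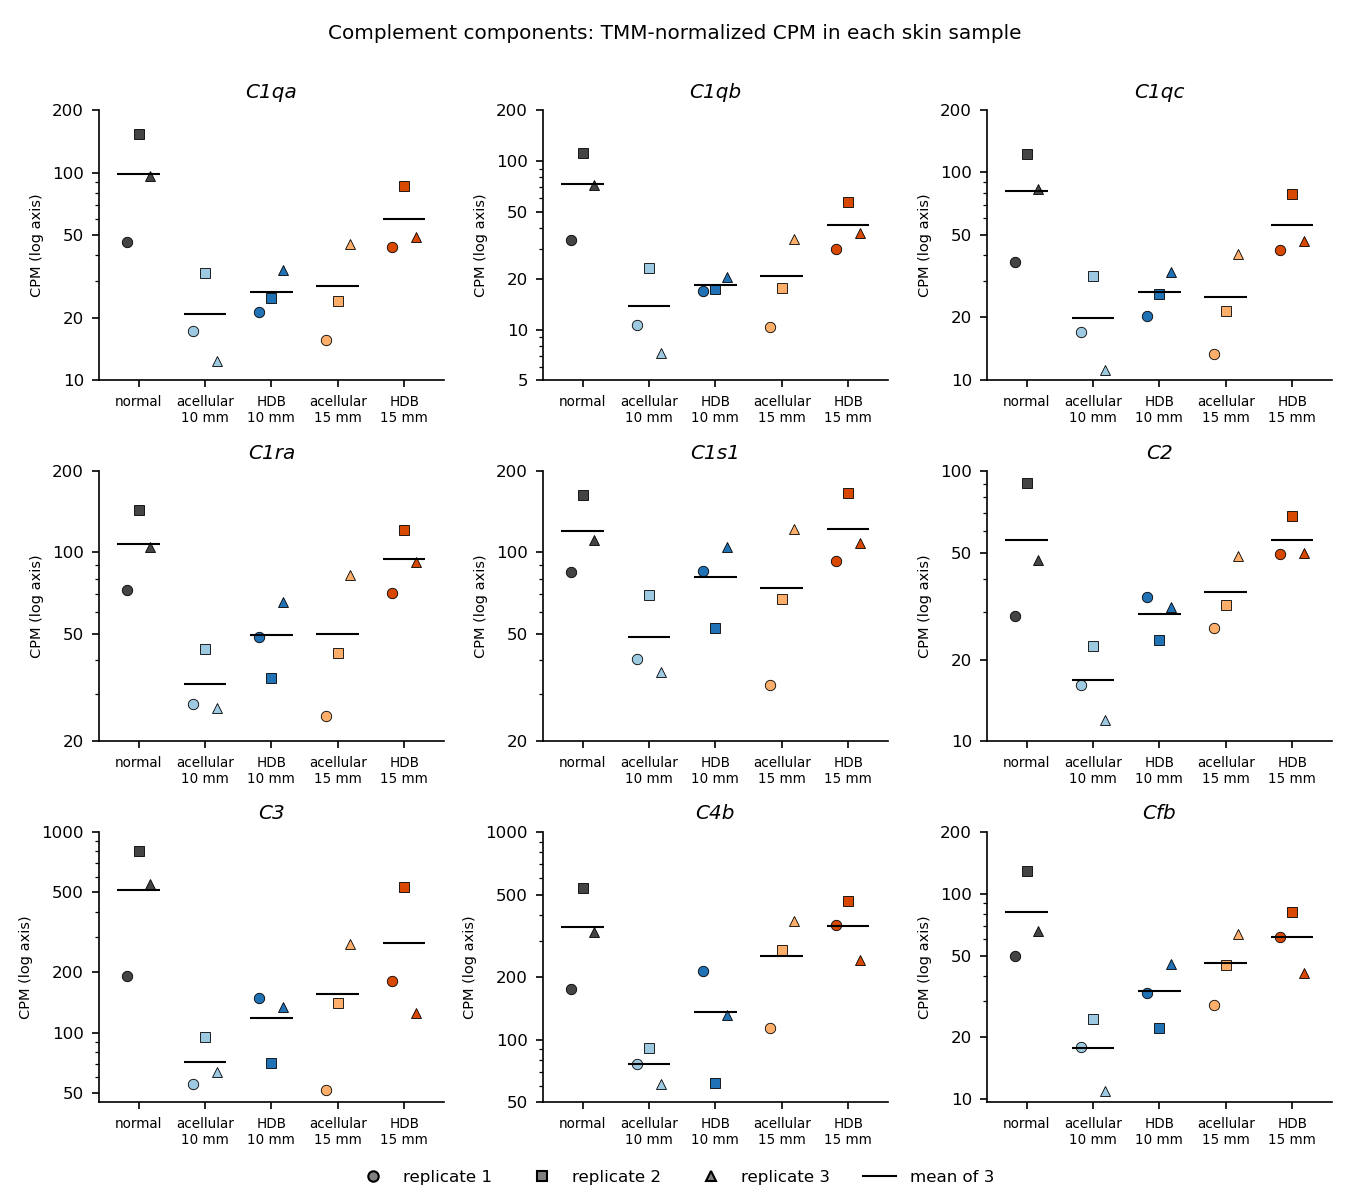
Level of each of the 9 members (CPM, log axis) in the 15 samples, one panel a gene, with the 5 groups along the horizontal axis, points for samples and a bar for the group mean. Acellular 10 mm samples are the lowest group for C1qa, for example 12.3 to 33.0 CPM against 46.3 to 153 CPM in normal skin, and HDB 15 mm samples overlap normal skin in all 9 panels.

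The members moved together from sample to sample as well as from group to group. Normal sample 2 was the highest and normal sample 1 the lowest of its group for 9 of 9 members. Acellular 15 mm sample 3 was the highest and sample 1 the lowest of theirs for 9 of 9, and acellular 10 mm sample 2 and HDB 15 mm sample 2 were each the highest for 9 of 9. HDB 10 mm was the exception, where sample 3 was highest for 6 members and sample 1 for 3. The 9 genes are therefore not 9 independent readings of a group. The spread within normal skin, which was 3.29-fold between samples 1 and 2 for C1qa and 4.19-fold for C3, enters every comparison with wounds below.

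Against normal skin, acellular 10 mm wounds had the most members called. Of the 9 members 8 were lower at an adjusted p under 0.05 (edgeR quasi-likelihood test, Benjamini-Hochberg over 15369 genes), where 10.6% of all genes tested were called lower. All 9 members lay below normal skin without overlap, as did 27.2% of all genes. C3 fell by 2.85 ± 0.708 (log2, SE; adjusted p = 0.0186) and Cfb had a log2 fold change of -2.195 ± 0.448 (adjusted p = 0.00994). C1qa fell by 2.23 ± 0.514 (adjusted p = 0.0145), C1qb fell by 2.40 ± 0.542 (adjusted p = 0.0138) and C1qc fell by 2.02 ± 0.517 (adjusted p = 0.0203). C4b fell by 2.19 ± 0.534, C1ra by 1.71 ± 0.419 and C2 by 1.71 ± 0.382. C1s1, with a log2 fold change of -1.30 ± 0.452 and an adjusted p of 0.0587, was the member not called. These calls leaned on single libraries. The number called was 1 of 9 without acellular 10 mm sample 1 or without normal sample 2, and 4 of 9 without acellular 10 mm sample 3 or without normal sample 3. Over all genes the number called lower, 1624 with every library, was 351, 669, 909 and 562 in these fits, in the same order. Cfb was called in all 6 of these leave-one-out fits.

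In the other wound groups fewer members passed. In acellular 15 mm wounds the C1q chains alone were lower, C1qa by a log2 fold change of -1.80 (adjusted p = 0.0212), C1qb by -1.80 (adjusted p = 0.0253) and C1qc by -1.69 (adjusted p = 0.0276), thus 3 of 9 members where 12.6% of all genes were called lower by edgeR. C1qa was the 1 member without overlap, against 21.5% of genes. DESeq2 called 5 members (2794 genes lower), C1ra and C3 besides the chains, and edgeR called none (542 genes lower) when fitted to these 2 groups alone. None was called without acellular 15 mm sample 1, acellular 15 mm sample 2, normal sample 2 or normal sample 3, and 6 were called without acellular 15 mm sample 3. Over all genes the number called lower, 1941 with every library, was 1549, 1950, 1307, 1041 and 2234 in these fits, in the same order. In HDB 10 mm wounds, C1qa (-1.88 ± 0.507, adjusted p = 0.0351) and C1qb (-1.99 ± 0.533, adjusted p = 0.0344) were lower, 2 of 9 where 6.23% of all genes were called lower, and 6 members lay wholly below normal skin, against 23.4% of genes. DESeq2 called 7 members there, all but C1s1 and C2, among 2018 genes lower, and edgeR fitted to these groups alone called 5 among 1411. None was called there without HDB 10 mm sample 2 or 3 or without normal sample 2 or 3, and 1 was called without HDB 10 mm sample 1. The number of all genes called lower was then 62, 94, 363, 39 and 1507, in that order, and 958 with every library. C3 had a log2 fold change of -2.12 ± 0.688 in that comparison with an adjusted p of 0.0611. In HDB 15 mm wounds edgeR called 0 of 9 members lower, where it called 2.51% of all genes lower, with 0 at an unadjusted p under 0.05 (26.9% of all genes) and 0 by DESeq2. The log2 fold changes there ran from -0.88 ± 0.665 for C3 and -0.81 ± 0.516 for C1qb to 0.03 ± 0.444 for C1s1, and a value that misses the threshold does not show equality with normal skin. These 4 comparisons share the normal samples, so they are not independent of each other.

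Averaged over the 4 wound groups, 7 of 9 members were lower than in normal skin by edgeR, against 16.7% of all genes. C3 fell by 1.89 ± 0.468 (adjusted p = 0.0118), C1qb by 1.75 ± 0.367 (adjusted p = 0.00591), C1qa by 1.66 ± 0.352 (adjusted p = 0.0062) and C1qc by 1.47 ± 0.36 (adjusted p = 0.0113). Cfb fell by 1.18 ± 0.314, C1ra by 1.02 ± 0.302 and C2 by 0.81 ± 0.278, the last with an adjusted p of 0.0435 that was 0.068 with the replicate number as a block. The call of C2 was lost in 11 of 23 alternative settings, with adjusted p up to 0.517 and a log2 fold change of -0.26 without normal sample 2. C1s1 (-0.63, adjusted p = 0.167) and C4b (-0.99, adjusted p = 0.0638) were not called. Without normal sample 2 the log2 fold change was also nearer 0 for Cfb (-0.68), C4b (-0.54) and C1s1 (-0.34). No member was without overlap between the 12 wound samples and normal skin, against 11.1% of genes. None was called without normal sample 2 and 3 were called without normal sample 3, where 1533 and 1187 of all genes were called lower, compared with 2564 with every library.

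**Figure D2:**
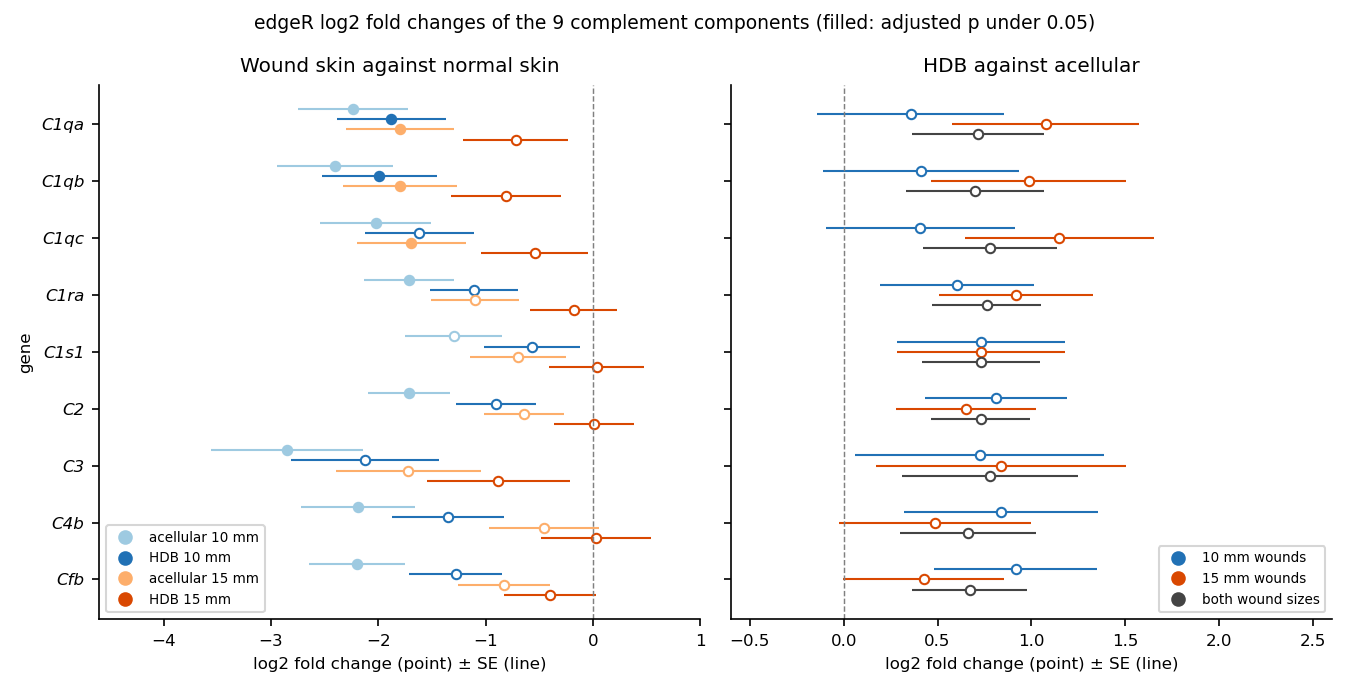
Log2 fold change of each member with its standard error in the comparisons with normal skin and between treatments, from the edgeR fit, with filled points for an adjusted p under 0.05. Acellular 10 mm wounds lie farthest below 0 against normal skin, from -2.85 for C3 to -1.30 for C1s1, and all members lie above 0 for HDB against acellular beads without passing the threshold.

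The effect of the cells was read from HDB against acellular beads of the same wound size. At 10 mm all 9 members were fitted higher with HDB, as were 48.2% of all genes, with log2 fold changes from 0.36 ± 0.496 for C1qa to 0.92 for Cfb and a median of 0.72, against -0.01 over all genes. With single libraries left out, C1qa ran from 0.087 to 0.85. No member was called by edgeR, which called 0% of genes higher here, none had an unadjusted p under 0.05 (3.53% of genes) and DESeq2 called none. C2 was the 1 member whose samples did not overlap (0.81 ± 0.376), against 4.53% of genes. At 15 mm all 9 members were again fitted higher, as were 50.3% of genes, and the median was 0.84 against 0.00. Here edgeR called 0 of 9 higher where 0.579% of all genes were called higher. The members with an unadjusted p under 0.05 were 2, C1qc (1.15 ± 0.504, adjusted p = 0.196) and C1ra (0.92 ± 0.410, adjusted p = 0.203), against 7.48% of genes higher at that level, and DESeq2 called none. C1qc and C2 (0.65 ± 0.372) did not overlap, against 8.55% of genes. Taken by number, each of the 3 HDB samples was above the acellular sample of the same number for C1qa, C1qb, C1qc, C1ra and C2, thus 5 of 9 members against 19.2% of genes, and 2 of 3 were for the other members. The labels do not say that samples of the same number belong together, so these pairs may be arbitrary. Without acellular 15 mm sample 3, C1ra was called, with a log2 fold change of 1.49 and an adjusted p of 0.031. C3 turned to -0.029 without HDB 15 mm sample 2, from 0.84 ± 0.665, so that its difference rested on that library.

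With both sizes in one contrast, the members' log2 fold changes ran from 0.66 ± 0.363 for C4b to 0.78 ± 0.47 for C3 and 0.78 ± 0.355 for C1qc, and all 9 were fitted higher against 48.8% of genes. C3 dropped to 0.35 without HDB 15 mm sample 2 and C4b to 0.42 without HDB 10 mm sample 1. No member passed the adjusted threshold of edgeR and neither did any other gene (0%), and DESeq2 called no member. Of the 9 members 5, namely C1qc, C1ra, C1s1, C2 and Cfb, had an unadjusted p under 0.05, against 5.32% of genes higher at that level. C2 had the lowest p (0.73 ± 0.264, adjusted p = 0.264) and was the 1 member without overlap at both sizes, as were 0.254% of genes, and its adjusted p ran from 0.0782 to 0.495 over the alternative settings. An exact two-sided permutation test of log2 CPM, with labels exchanged within each wound size, has 400 arrangements and a smallest possible p of 0.005. It gave 0.005 for C2, 0.03 for C1ra, 0.04 for C1qc and 0.045 for C1s1. C1qa and C1qb both gave an exact p of 0.055, Cfb 0.06, C4b 0.13 and C3 0.14. These are 9 tests of genes that move together, and they are not adjusted. Within 1 wound size an exact test has 20 arrangements and cannot go below 0.1. The treatment effect did not pass a test of difference between the sizes for any member, with 0 called by edgeR (0% of genes), 0 at an unadjusted p under 0.05 (13.4% of genes) and 0 by DESeq2.

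Larger wounds had higher fitted levels of all 9 members under either treatment, against 57.2% of genes with acellular beads and 52.1% with HDB. With acellular beads C4b was 1.73 ± 0.526 (log2, adjusted p = 0.169) higher at 15 mm than at 10 mm, Cfb 1.37 ± 0.438 (adjusted p = 0.174) and C2 1.07 ± 0.377 (adjusted p = 0.197). The samples of these 3 genes did not overlap between sizes, against 8.39% of genes, and the same 3 had an unadjusted p under 0.05 (10.5% of genes higher). edgeR called 0 of 9 and 0% of genes higher, whereas DESeq2 called 605 genes higher, these 3 among them, with adjusted p of 0.0156 for C4b, 0.0251 for Cfb and 0.0487 for C2. With HDB, C4b (1.38 ± 0.521), C1qb (1.18 ± 0.523), C1qa (1.16 ± 0.498), C1qc (1.07 ± 0.503), C1ra (0.93 ± 0.41) and C2 (0.91 ± 0.374) did not overlap between sizes, against 11% of genes. Among them 5, all but C1qc, had an unadjusted p under 0.05 (5.67% of genes higher), and none was called by edgeR (0% of genes) or DESeq2.

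Per kilobase of the longest annotated transcript, on which scale genes can be set beside each other, C3 was the most abundant member in normal skin at 100.3 CPM per kb, followed by C1qa at 94.5, C1qc at 67.5, C1qb at 66.7 and C4b at 64.5. C1s1 (40.6), C1ra (35.9), Cfb (29.6) and C2 (21.0) were lower. The leading member differed between groups. C1qa led acellular 10 mm wounds at 20.1 CPM per kb, C1s1 led HDB 10 mm at 27.5, and C4b led acellular 15 mm at 46.9 and HDB 15 mm at 65.7. C2 was the lowest member in all 5 groups. Neighbours in these orders overlapped in their sample values throughout, except C1ra and Cfb in acellular 10 mm wounds.

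Ratios between partner genes were taken within each sample. C1qb over C1qa was -0.59 ± 0.13 (log2 of CPM per kb, SD, n = 15), with a range of -0.83 to -0.41, and C1qc over C1qa was -0.34 ± 0.11, with a range of -0.53 to -0.16. Over the same samples the level of C1qa itself varied 12.4-fold. C1s1 over C1ra was 0.18 ± 0.07 in normal skin (0.10 to 0.23) and 0.57, 0.71, 0.55 and 0.38 in acellular 10 mm, HDB 10 mm, acellular 15 mm and HDB 15 mm wounds, and the lowest wound sample, at 0.26, was above the highest normal one. Cfb over C2 was 0.53 ± 0.16 in normal skin and between -0.02 and 0.28 in the means of the wound groups. C4b over C3 was -0.55 ± 0.31 in normal skin and 0.04, 0.03, 0.77 and 0.51 in the same 4 wound groups. The share of reads given to the copy C1s2 bears on the level of C1s1, and its part in the C1s1 to C1ra ratio was not tested.

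**Figure D3:**
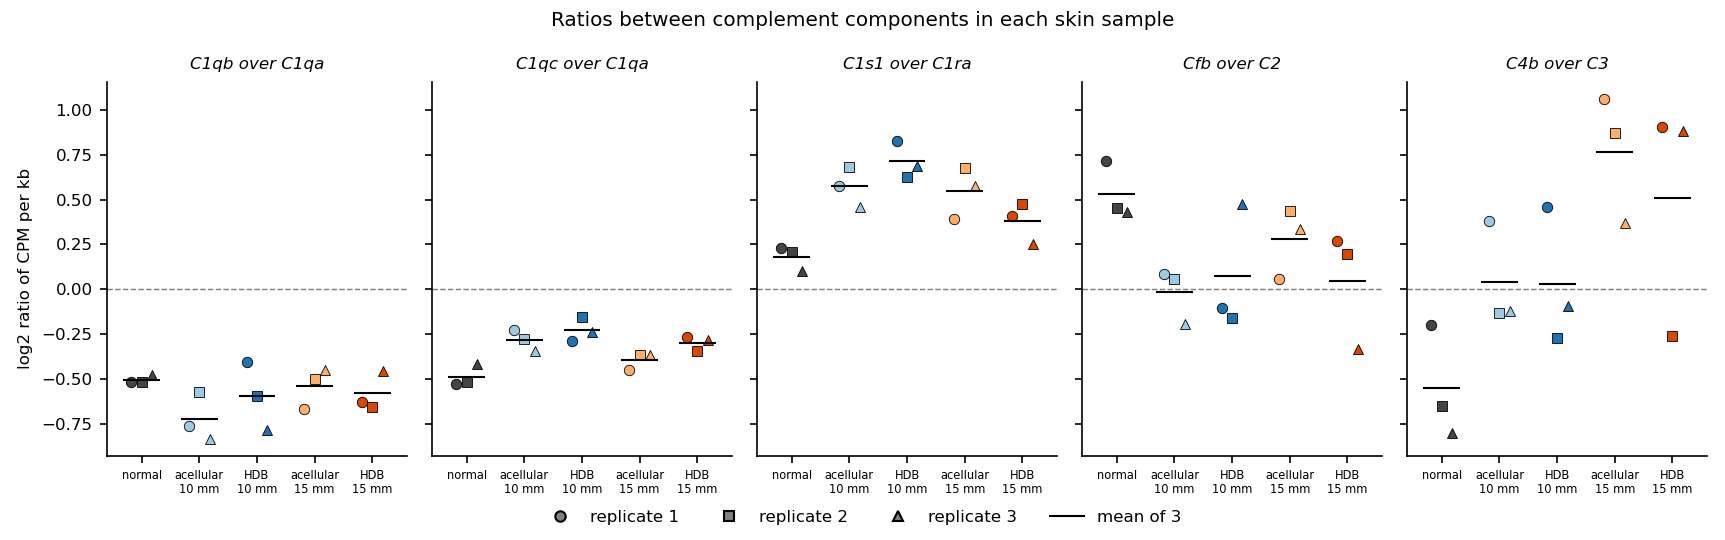
Log2 ratio of CPM per kb between partner genes in each of the 15 samples, by group, with bars for the group means. C1qb over C1qa and C1qc over C1qa stay within -0.83 to -0.16 in every sample, whereas C1s1 over C1ra is 0.10 to 0.23 in normal skin and 0.26 to 0.83 in the wound samples.

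Genes with the profiles closest to each member were found by the root mean square difference of log2 CPM, centred on each gene's mean, over the 15 samples and 15368 other genes. For C1qa the nearest were C1qc (0.103), C1qb (0.125) and Mrc1 (0.206), which encodes the mannose receptor of macrophages. Mrc1 was also among the nearest of C1qb (0.222), after its partner chains C1qa (0.125) and C1qc (0.183). For C1qc the third was Cfp (0.257), which encodes properdin, the stabiliser of the alternative convertase. Cfp was also near C1ra (0.186), beside Pid1 (0.179) and Medag (0.193). C1s1 was closest to Pid1 (0.165), Cryzl2 (0.186) and Colec12 (0.195), a collectin scavenger receptor. Fcrls (0.298) and Ptger3 (0.314) were among the nearest of C3. C2 was nearest to Svep1 (0.201), Cd302 (0.238) and Igf1 (0.273), C4b to Sod3 (0.266), Opn3 (0.274) and Cp (0.291), and Cfb to Serpina3n (0.247), Sod3 (0.261) and Ccdc80 (0.264). The median difference to all genes was 0.806 to 1.25 depending on the member.

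Other genes of the cascade were read from lists by role. Over all genes 10.6% were called lower and 9.77% higher by edgeR in acellular 10 mm wounds against normal skin, and 16.7% and 14.2% in the mean of the wounds, against which the counts of each list below can be set. Cfd, the factor D protease that cleaves factor B, Cfp and C4a were all lower in acellular 10 mm wounds than in normal skin (3 of 3, median log2 fold change -1.78 against 0.03 over all genes), and Cfd fell by 1.46 (adjusted p = 0.0299) and Cfp by 1.08 (adjusted p = 0.0217) averaged over the wounds. Cfd was the most abundant of them, at 1549 CPM in normal skin and 219 CPM in acellular 10 mm wounds. Of the recognition and protease genes besides the members, 3 of 8 tested were lower in acellular 10 mm wounds, and in the mean of the wounds Fcna, a ficolin of the lectin pathway, fell by 4.18 (adjusted p = 7.21e-05) while Masp1, a lectin pathway protease, rose by 0.93 (adjusted p = 0.0454). Of the terminal pathway, which builds the membrane attack complex, 3 of 5 tested were lower in acellular 10 mm wounds and C9 was higher (1.91). In the mean of the wounds C7 fell by 2.40, C6 by 1.67 and C8g by 1.44.

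Some regulators and receptors were called too. Serping1, the C1 inhibitor, fell by 1.56 (adjusted p = 0.00523) in the mean of the wounds, where 2 of the 4 fluid-phase regulators tested were called lower. Of the 6 membrane-bound regulators tested, Cd55, the decay-accelerating factor, fell by 1.31 and Cr1l by 0.27. Of the 6 receptors tested, C5ar1, the receptor of the C5a fragment, fell by 2.04 and Cd93 by 0.76. In HDB 15 mm wounds against normal skin, Fcna (-2.49) was the 1 gene of these 6 complement lists that edgeR called. DESeq2 called 5 there, Fcna, Cd55 and Cr1l lower and Masp1 and Hc, the gene of C5, higher. Between HDB and acellular beads edgeR called none in any of them at 10 mm, at 15 mm or over both sizes. DESeq2 called 3, all at 15 mm and all higher with HDB, namely Fcna (edgeR log2 fold change 1.61, adjusted p = 0.095) and the copies C1rb (1.44, adjusted p = 0.107) and C1s2 (1.32, adjusted p = 0.122). Over both sizes 4 of 8 recognition and protease genes, 1 of 3 alternative pathway genes and 2 of 4 fluid-phase regulators had an unadjusted p under 0.05, against 2428 of 15369 genes in either direction, and none did in the terminal, membrane-bound and receptor lists, with 0 called by DESeq2 in each. The list medians were 0.61 for recognition and proteases, 0.72 for the alternative pathway, 0.45 for the terminal pathway, 0.87 for fluid-phase regulators, 0.22 for membrane-bound regulators and 0.33 for receptors.

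Interferon gamma, NF-kB and IL-6 signals are known inducers of complement genes. Of 11 interferon gamma receptors, factors and targets, edgeR called none in acellular 10 mm wounds against normal skin (Ifngr2 alone had an unadjusted p under 0.05 and was called by DESeq2), and in the mean of the wounds Ifngr2 fell by 0.55 with a list median of 0.18. The most abundant, Ifngr1, had a log2 fold change of -0.33 ± 0.16 (adjusted p = 0.13). Against normal skin edgeR called 2 of the 11 lower in acellular 15 mm wounds (12.6% of all genes) and 1 in HDB 10 mm wounds (6.23%). Of 14 NF-kB and acute-phase inputs 5 were higher and 1 lower in acellular 10 mm wounds, where 9.77% of all genes were higher and 10.6% lower. In the mean of the wounds Saa3, an acute-phase protein, rose by 3.03 and Lcn2 by 1.51, while Il6ra, the IL-6 receptor, fell by 1.41, and Stat3, the most abundant, was at 0.14 ± 0.15 (adjusted p = 0.5). Between HDB and acellular beads edgeR called none of either list over both sizes, with 0 at an unadjusted p under 0.05 and 0 by DESeq2, and the medians were 0.29 and -0.03. At 15 mm edgeR called none either, whereas DESeq2 called Ifngr1 and Cebpd higher with HDB, and 1 interferon gene and 2 NF-kB inputs had an unadjusted p under 0.05. At 10 mm neither edgeR nor DESeq2 called any, and 0 interferon genes and 3 NF-kB inputs had an unadjusted p under 0.05.

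Markers of several cell types moved with some of these results, and those of others did not. The 15 macrophage markers summed to 575, 1234 and 793 CPM in normal samples 1, 2 and 3 and to 246, 1261 and 225 CPM in acellular 10 mm wounds. Of the 15 markers 7 were lower in that comparison, in which 10.6% of all genes were, among them Mrc1 (-2.58), Cd163 (-3.94) and Folr2 (-3.87), while the most abundant, Lyz2, stood at -0.02, and the list median was -0.33 against 0.03 over all genes. In acellular 10 mm sample 2 the macrophage sum was above that of every normal sample, whereas the summed C1q chains, at 87.8 CPM, were below the normal range of 117 to 387 CPM. That sum came mostly from Lyz2, at 795 CPM, and Ctss, at 251 CPM. Mrc1, Cd163, Csf1r and Folr2 were below normal skin in every acellular 10 mm sample, with highest values of 30.2, 7.48, 49.98 and 2.98 CPM against lowest normal values of 53.3, 40.7, 72.6 and 13.3 CPM. Over all genes 27.2% lay wholly below normal skin in that comparison. Of the 15 markers 3 were fitted higher there, with 0 called higher, as were 7 in HDB 10 mm and 7 in HDB 15 mm wounds against normal skin. In HDB against acellular beads over both sizes 14 of the 15 markers were fitted higher (48.8% of all genes), with a median of 0.60. None was called by edgeR or DESeq2, and 2 had an unadjusted p under 0.05 (2428 of 15369 genes in either direction). None of the markers was at 0 in all samples.

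Fibroblast markers, of which Col3a1 had the highest mean over all samples and Col1a2 in normal skin, summed to 7931 to 25512 CPM in normal skin, 3729 to 5733 CPM in acellular 10 mm, 9405 to 12381 CPM in HDB 10 mm, 3674 to 15393 CPM in acellular 15 mm and 8741 to 19087 CPM in HDB 15 mm wounds. Of the 12 markers 8 were lower in acellular 10 mm wounds than in normal skin (10.6% of all genes) and 4 of 12 in the mean of the wounds (16.7%). With HDB against acellular beads 12 of 12 were fitted higher over both sizes with a median of 0.98, none called by edgeR, against 48.8% of genes, 9 at an unadjusted p under 0.05 (5.32% of genes higher) and 3, Dcn, Lum and Mfap5, by DESeq2 (115 genes higher). Adipocyte markers, led by Fabp4, summed to 3310 to 6722 CPM in normal skin and 621 to 1024 CPM in acellular 10 mm wounds, where 7 of 7 were lower, and endothelial markers, led by Pecam1, to 645 to 728 CPM and 116 to 233 CPM, where 8 of 8 were lower. Mast cell markers, of which Mcpt4 was highest in normal skin and Kit in acellular 10 mm wounds, summed to 119 to 248 CPM in normal skin and 34.7 to 66.4 CPM in those wounds, where 4 of 6 were lower. Dendritic and Langerhans cell markers, led by Epcam, summed to 131 to 149 CPM in normal skin and 212 to 365 CPM in those wounds. Of these 7 markers 1 was called higher and 1 lower there, with a median log2 fold change of 0.65. Of 8 keratinocyte markers 3 were called higher and 0 lower (median 0.58), where 9.77% of all genes were called higher. No T cell marker (median 0.15) or neutrophil marker (0.34, 4 tested) was called.

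Hair shaft and inner root sheath genes, led by Tchh, varied widely between samples. In acellular 10 mm samples 1, 2 and 3 they summed to 1251, 13.3 and 356 CPM, and in acellular 15 mm samples to 18774, 1462 and 25.1 CPM. In both groups the sample with the lowest sum had the highest level of all 9 members, and in acellular 15 mm the sample with the highest sum had the lowest. With HDB the sums were 29.7, 35.1 and 31.9 CPM at 10 mm and 600, 117 and 95.9 CPM at 15 mm. Over both sizes 10 of 10 were fitted lower with HDB, with a median log2 fold change of -5.01, none called by edgeR, 10 at an unadjusted p under 0.05 (2428 of 15369 genes in either direction) and 9 by DESeq2 (309 genes lower). Between sizes they were fitted higher at 15 mm, as the members were, in 10 of 10 under either treatment, with medians of 4.20 with acellular beads and 5.01 with HDB, none called by edgeR or DESeq2, and 5 and 4 at an unadjusted p under 0.05. The part of these cell types in the levels of the complement genes was not tested.

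**Figure D4:**
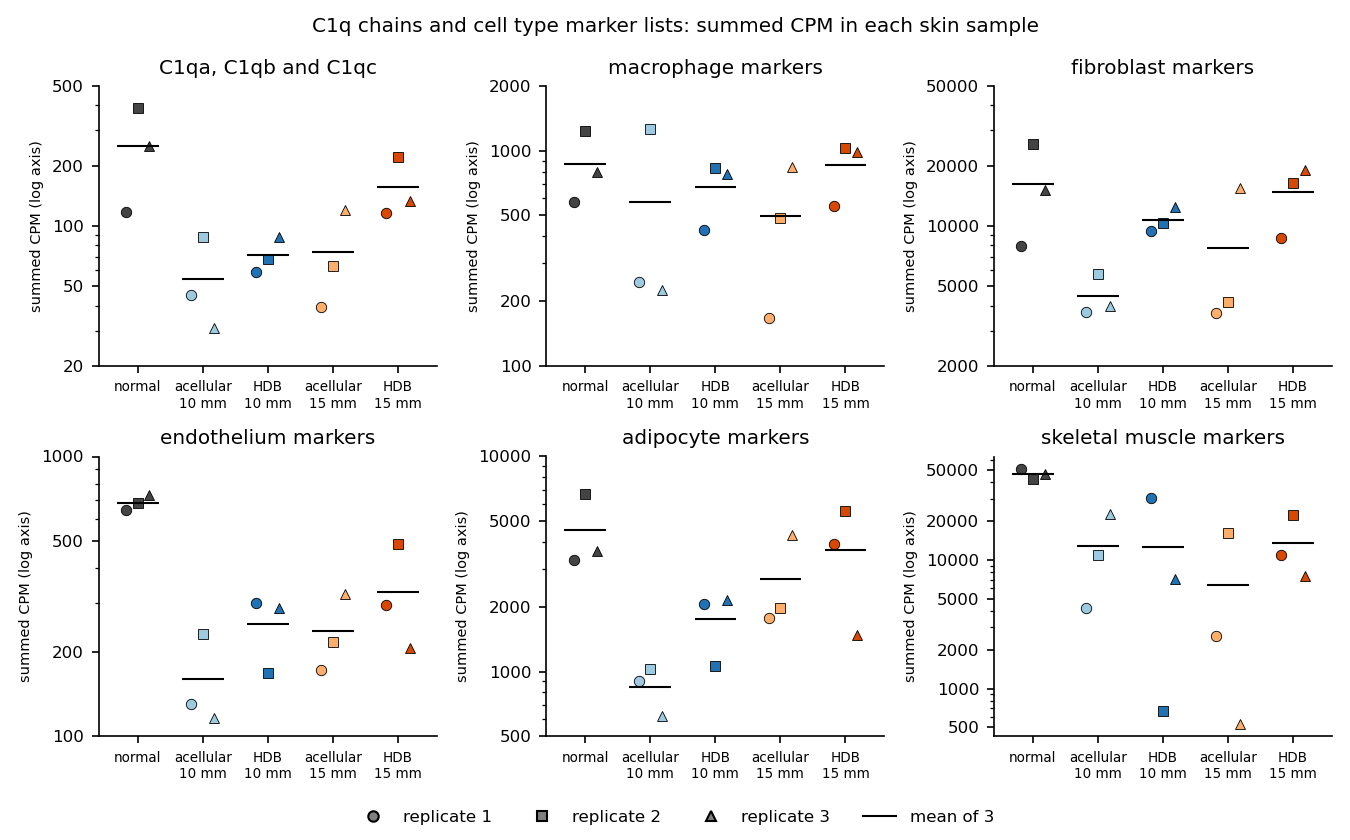
Summed CPM (log axis) of the C1q chains and of the macrophage, fibroblast, endothelial, adipocyte and skeletal muscle marker lists in each sample, by group, with bars for the group means. The C1q sum is 117 to 387 CPM in normal skin and 30.8 to 87.8 CPM in acellular 10 mm wounds, where the macrophage sum ranges from 225 to 1261 CPM.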

How the data were processed

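Skin RNA from 15 samples in 5 groups of 3 was sequenced after oligo(dT) selection, and the strandedness is not given in the sources used here. The authors deposited expected counts per mouse gene (RSEM 1.2.12 over Bowtie2 2.2.5, with HISAT2 2.0.4 and the build GRCm38.p6, as listed in the submitters' processing notes). These estimated counts were rounded, since reads shared by copies are divided in them. Totals of 15840551 to 18404188 per sample set the precision.

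The 9 members and all lists were chosen with earlier results of these data known. One model with 5 group means was fitted across all genes in R 4.3.3 with edgeR 4.0.16 (TMM scaling, filterByExpr keeping 15369 of 18929 genes, two-sided quasi-likelihood tests, Benjamini-Hochberg adjustment, threshold 0.05). Standard errors are the log2 fold change over the square root of F. Log2 CPM used a prior count of 2, and CPM per kb the longest annotated transcript. The test was tried on simulated data. Named genes were the members, the most abundant gene of each list, up to 3 called genes of each complement list with the largest change against normal skin, and the 3 nearest profiles. C9, C4a, C1rb, C1s2, Csf1r, Ctss, Cebpd, Hc, Ttr, Cps1, Kit, Col1a2, Cd163, Folr2, Dcn, Lum and Mfap5 were named after their values were seen.

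Samples of the same number in acellular and HDB 15 mm wounds deviated together (correlations 0.397, 0.167 and 0.183), which was not so at 10 mm (-0.312, 0.0348 and -0.078). Groups of unlike size and treatment also gave values that large, such as 0.489, 0.242 and -0.342 for acellular 10 mm with HDB 15 mm. The labels give numbers only, so whether the 15 mm samples are paired cannot be told. The reported fit and the exact test are unpaired. The fit with the block, an alternative, called 0 members between treatments at 15 mm as well. Alternatives were DESeq2 1.42.0, RLE factors, other count filters, only the groups compared, the replicate block, removal of a transcript length trend, summed copies and leaving out each sample. No 2 replicates agreed within sampling noise (chi-square per degree of freedom of 20.3 to 255). Protein features were not analysed here. Values of 1 gene of the lists are not reported here.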

Additional observations from a re-analysis of the deposited data

How the results depend on the processing

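No member was called between HDB and acellular beads in any alternative setting at 10 mm or over both sizes, and at 15 mm the count ran from 0 to 1 when single libraries were left out. Against normal skin the count of members called then ran from 1 to 8 for 10 mm and 0 to 6 for 15 mm wounds with acellular beads, from 0 to 2 for 10 mm wounds with HDB and from 0 to 8 for the mean of the wounds. DESeq2 called 5 members in acellular 15 mm and 7 in HDB 10 mm wounds against normal skin and 3 between sizes with acellular beads. With only the groups compared in the fit, edgeR called 0 in acellular 15 mm and 5 in HDB 10 mm wounds. The log2 fold change of C3 between treatments at 15 mm ran from -0.029, without HDB 15 mm replicate 2, to 1.54. The cause of these changes was not tested, and with 3 samples a group no count of members is firm.

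With the replicate number as a block, the members called against normal skin were 8 at 10 mm and 4 at 15 mm with acellular beads, 2 at 10 mm with HDB and 6 in the mean of the wounds, and 0 between treatments at either size. Over all genes the block left 179 called between treatments at 15 mm (450 without it), and, for HDB against normal skin, 1187 at 10 mm (1895) and 237 at 15 mm (796). It left 2466 (3125) and 3887 (4642) with acellular beads at those sizes, and 4200 (4746) for the mean of the wounds.

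Counts over all genes, on which the shares printed beside the members rest, also moved by more than 1.5 times elsewhere. With single libraries left out they ran from 0 to 2322 between treatments at 15 mm and from 0 to 229 over both sizes, and between sizes with acellular beads from 0 to 526. Against normal skin they ran from 800 to 1853 and 2304 to 5805 with acellular beads at 10 mm and 15 mm, from 78 to 2725 and 34 to 1340 with HDB, and from 1848 to 6229 for the mean of the wounds (4746 with every library). DESeq2 called 17 between treatments at 10 mm (edgeR 0), 2174 at 15 mm (450), 424 over both sizes (0), and, against normal skin, 5058 with acellular beads at 10 mm (3125) and 3804 (1895) and 2864 (796) with HDB at 10 mm and 15 mm. It called 1015 and 568 between sizes with acellular beads and HDB (0 and 0). With only the groups compared the counts were 0 between treatments at 15 mm, and, against normal skin, 6196 and 972 with acellular beads at 10 mm and 15 mm (3125 and 4642 in the fit of all groups) and 2988 and 3401 with HDB (1895 and 796). Removing the length trend left 0 between treatments at 15 mm.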
